A study of Mus musculus with 8 samples.

Results

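The mouse immunoglobulin heavy chain locus (Igh) is described here through its contacts in activated B cells. It was taken as the 58 bins of 50 kb that cover chr12:113200177-116100050 of GRCm38, out of 48088 autosomal bins, and its bins were drawn by position and annotation. Its members are the 8 constant region genes Ighm, Ighd, Ighg3, Ighg1, Ighg2b, Ighg2c, Ighe and Igha, and 113 V segments that the GENCODE vM21 annotation lists there.

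In situ Hi-C gave the contacts: chromatin is fixed, its DNA is cut with MboI and religated inside the nucleus, and a read pair then records a pair of places that lay close together. Naive B cells were isolated from the spleens of male mice aged 6 to 12 weeks, labelled with the division dye CTV and cultured with lipopolysaccharide (LPS, 25 µg/ml), a bacterial product that drives B cells to divide and to become antibody secreting cells. There were 8 libraries in 4 groups of 2. C57BL/6 cells were taken 3 h after LPS (the 3 h group), 10 h after LPS (the 10 h group) and 33 h after LPS as cells labelled as in imminent division (the imminent group), while C57BL/6 FUCCI cells, whose transgenic reporters mark the phases of the cell cycle, were taken at 33 h before S phase (the pre-S group). All groups carried LPS stimulation, so none is a resting control, and naive cells were not analysed here. The methods place all mice on a C57BL/6 Pep3b background. The FUCCI transgenes and the sorting gate set the pre-S group apart from the other groups. Their part in a difference to the pre-S group cannot be told apart from that of the cell cycle phase. No source used here says whether the cells of a library came from 1 animal or were pooled. The p-values below rest on the spread between 2 libraries per group.

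In the mouse the heavy chain locus lies near the telomere of chromosome 12 and is read on the minus strand. Upstream to downstream it holds a large array of V segments, then D and J segments, then the constant genes in the order Ighm, Ighd, Ighg3, Ighg1, Ighg2b, Ighg2c, Ighe and Igha, then a 3′ regulatory region with enhancers and a cluster of CTCF sites. A developing B cell joins a D, a J and a V segment and deletes the DNA between them, and an activated B cell can replace Ighm by a downstream constant gene through class switch recombination between switch repeats. CTCF is a DNA-binding protein that halts loop-extruding cohesin in an orientation-dependent way, and loop extrusion through the locus is known to bring V segments to the recombination centre and the 3′ region to the switch repeats.

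At 50 kb the 8 constant genes fell in 4 bins, so genes of 1 bin cannot be told apart. Igha (ENSMUSG00000095079.6, chr12:113254830-113260236), Ighe (ENSMUSG00000087642.3, chr12:113269260-113273248) and Ighg2c (ENSMUSG00000076612.8, chr12:113285325-113288932) shared a bin and encode the IgA, IgE and IgG2c constant chains. Ighg2b (ENSMUSG00000076613.4, chr12:113302965-113307933) and Ighg1 (ENSMUSG00000076614.7, chr12:113325240-113330523), of IgG2b and IgG1, shared the next bin. Ighg3 (ENSMUSG00000076615.4, chr12:113356224-113361232), of IgG3, lay alone in its bin. Ighd (ENSMUSG00000104213.5, chr12:113406604-113416324) and Ighm (ENSMUSG00000076617.9, chr12:113418558-113422730), of IgD and IgM, the isotypes a naive B cell carries on its surface, shared the fourth. The remaining bins were divided by annotation into the 3′ region (1 bin below Igha), the D bins (2 bins, holding the genes Adam6b and Adam6a), proximal V (7 bins with 20 V segments, to the last Ighv2 or Ighv5 segment), intermediate V (11 bins with 27), distal V (32 bins with 66, mostly of the Ighv1 family) and the last bin, which holds the start of Vipr2. The 1 Mb below the locus, with 24 protein-coding starts, is called the proximal flank, and the 1 Mb above it the distal flank.

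The CTCF core motif was searched on both strands of GRCm38, and the matches differed in strand and placement between the 2 ends of the locus. The 3′ region bin held 2 matches, both on the plus strand, which reads toward the V segments. All matches in the V parts (16 in proximal, 5 in intermediate and 36 in distal V) lay on the minus strand, which reads toward the 3′ region. The first 2 sequences are those of the 3′ region, and the next 2 are typical of proximal V. The last 3 lie in the distal V bins with the strongest mean contact with the 3′ region over the 8 libraries. Capitals mark the core.

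3′ region, plus strand, chr12:113220045-113220072: gcatctagCCACCAGGGGGCacatgagc

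3′ region, plus strand, chr12:113221400-113221427: gcatctgtCCACCAGGGGGCacctgagc

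Proximal V beside Ighv5-2, minus strand, chr12:113578426-113578453: atccaggaCCAGCAGGGGGCgcggagag

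Proximal V beside Ighv2-2, minus strand, chr12:113588187-113588214: gatcaggaCCAGCAGGGGGCagtgaagc

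Distal V near Ighv1-47, minus strand, chr12:114997008-114997035: gttcttgaCCAGCAGGGGGCatattagg

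Distal V near Ighv1-55, minus strand, chr12:115209317-115209344: gttctggaCCAGCAGGGGGCacaatggg

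Distal V near Ighv1-59, minus strand, chr12:115336778-115336805: gttctggaCCAGCAGGGGGCaaaatggg

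In proximal V all 16 matches lay on the 3′ side of a V segment, 56 to 64 bases from it. In distal V none of the 36 matches lay within 100 bases of a V segment, and their distances ran from 471 to 32186 bases. A match was present in 7 of 7 proximal V bins, 5 of 11 intermediate V bins and 23 of 32 distal V bins, against 19.7% of all autosomal bins. The constant and D bins held 0 matches, which says only that these letters are not in these bins.

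The switch repeat upstream of Ighm is shown because it bears on what Hi-C can see in a small stretch of the Ighm bin. The 10 kb on the 5′ side of Ighm held 198 copies of GAGCT on the minus strand, against 11.2 per 10 kb and strand on the whole of chromosome 12, and 56 copies of GGGGT, against 7.27. A stretch of 1.5 kb at chr12:113424231-113425730 held 164 and 45 of these copies and 1 MboI site. The window chr12:113425058-113425207 of that stretch, on the minus strand, held no MboI site, and Hi-C fragment ends cannot start inside it. The whole 10 kb held 29 MboI sites and the Ighd and Ighm bin 143, so the bin as a whole is not short of sites.

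Switch repeat upstream of Ighm, all capitals since every pentamer is GAGCT or GGGGT: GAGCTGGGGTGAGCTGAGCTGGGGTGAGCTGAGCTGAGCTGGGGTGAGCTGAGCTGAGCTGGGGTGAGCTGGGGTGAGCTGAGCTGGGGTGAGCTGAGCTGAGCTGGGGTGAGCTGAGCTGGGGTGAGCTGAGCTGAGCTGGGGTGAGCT

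The libraries held 88703088 to 218945191 read pairs, of which 70.9% to 75.1% of those between autosomal bins joined bins of the same chromosome. Replicates differed by more than counting noise, and the pairs of 3 h and imminent libraries differed most: the chi-square of their interactivity over bins (interactivity is defined with the constant genes), divided by its degrees of freedom, was 5.15 and 8.74, against 1.24 at 10 h and 1.49 in the pre-S group. Contacts are counted on the germline reference, so a read pair across a rearranged V(D)J joint counts as a long-range contact, and joined DNA and folded DNA cannot be told apart. Fewer copies of a stretch of DNA (after deletion) and fewer contacts per copy cannot be told apart either.

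Coverage, the read pairs of a bin with all other autosomes divided by the autosomal median, followed the parts of the locus. The D bins had the lowest coverage, with part means of 0.466 to 0.570 over the 8 libraries, and the order of the parts was the same in every library from D through proximal V (0.568 to 0.650) and intermediate V to distal V (1.12 to 1.27). The constant bins had 1.58 to 1.98 and the last bin 1.47 to 1.78, near the 1.53 to 1.94 of the proximal flank. The D bins and proximal V were thus low in all 8 libraries. They hold 3.33 and 2.74 MboI sites per kb, against an autosomal mean of 2.39. What set these levels was not tested. The contact counts hold no RNA levels, so the labelled cell type was not checked against marker expression.

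**Figure D1:**
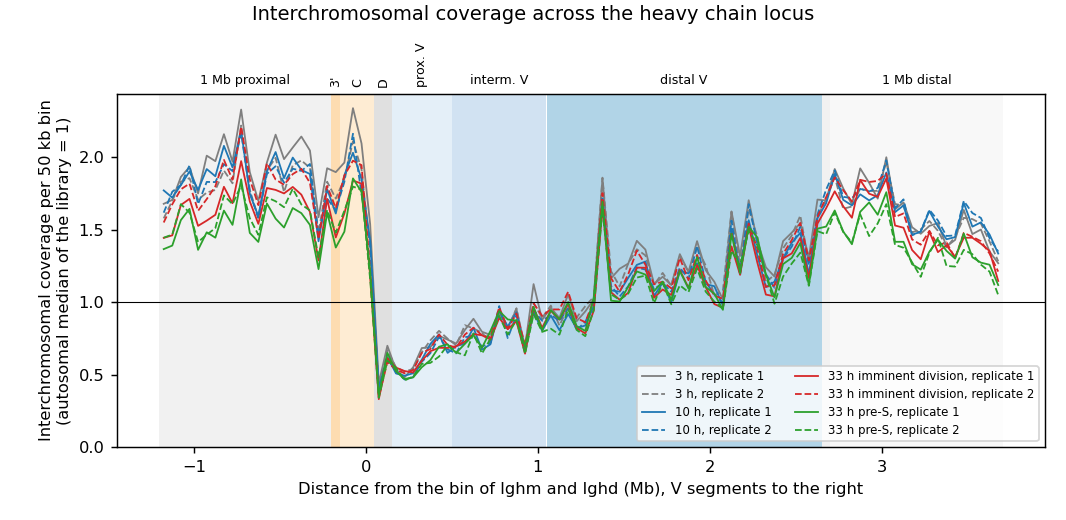
Interchromosomal coverage of each 50 kb bin relative to the autosomal median of the library (y axis) against the distance from the Ighd and Ighm bin in Mb (x axis), from the proximal to the distal flank, with 1 line for each of the 8 libraries and shading for the parts. Coverage drops in the D bins, whose part means were 0.466 to 0.570, and climbs to 1.12 to 1.27 in distal V.

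Between 10 h and 33 h the Ighd and Ighm bin lost coverage. Its values were 1.54 and 1.35 at 3 h, 1.42 and 1.41 at 10 h, 1.18 and 1.21 in the imminent group and 1.21 and 1.16 in the pre-S group. All 4 libraries at 33 h were below all 4 earlier ones. The log2 fold change was -0.27 (SE 0.05, adjusted p = 0.00042, edgeR quasi-likelihood test with Benjamini-Hochberg adjustment over all bins) from 10 h to the imminent group and -0.25 (SE 0.06, adjusted p = 0.000302) from 10 h to the pre-S group. It was the only locus bin called lower in the imminent group, where 9.0% of all autosomal bins were called lower and 8.01% higher. That count was 6 without the second imminent library and 2 without either 3 h library. Against the pre-S group 9 locus bins were called lower and 0 higher, beside 20.6% of all bins called lower and 27.7% higher: with the Ighd and Ighm bin these were the Igha, Ighe and Ighg2c bin (-0.24, adjusted p = 0.00157), the Ighg2b and Ighg1 bin (-0.20, adjusted p = 0.00813), the 3′ region (-0.18, adjusted p = 0.0168), 2 proximal V bins, 2 distal V bins and the Vipr2 bin. Leaving out pre-S replicate 1 or 2 gave 5 or 3 calls, leaving out 10 h replicate 1 or 2 gave 6 or 5, and leaving out imminent replicate 2 gave 15. From 3 h to 10 h edgeR and DESeq2 called 0 locus bins, with 14 of 58 at an unadjusted p under 0.05 in edgeR and 0.00845% of all bins called higher. Between the 2 groups at 33 h, 2 locus bins were higher and 2 lower in the imminent group, where 16.4% of all bins were higher and 27.3% lower, and DESeq2 called 0. Leaving out imminent replicate 1 or 2 gave 14 or 2 calls, and leaving out pre-S replicate 1 or 2 gave 0 or 1.

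The interactivity of a bin is the sum of its contacts with the bins 50 kb to 3 Mb away, in CPM (normalised contact counts scaled to the total read pairs of the library). Over the 8 libraries 3 of the 4 constant bins were among the bins of higher interactivity in the genome. Interactivity is not corrected for coverage, which averaged 1.58 to 1.98 in the constant bins. By mean level the Igha, Ighe and Ighg2c bin stood at percentile 91.0 of all tested bins, the Ighg2b and Ighg1 bin at 93.7, the Ighg3 bin at 90.3, and the Ighd and Ighm bin at 54.1. At 33 h 3 of these 4 bins were lower in both groups, and the Ighg3 bin was lower in the pre-S group.

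The Igha, Ighe and Ighg2c bin had 21.8 and 22.2 CPM at 3 h, 22.1 and 21.3 at 10 h, 16.2 and 16.5 in the imminent group, and 16.6 and 17.7 in the pre-S group. The 33 h libraries lay below every earlier library without overlap. The log2 fold change from 10 h was -0.41 (SE 0.04, adjusted p = 6.92e-05, edgeR) in the imminent group and -0.34 (SE 0.04, adjusted p = 0.000256) in the pre-S group. In the imminent group that change stood at percentile 0.241 of all bins, and in the pre-S group at 2.40. The other constant bins stood at 2.68 to 25.9 in the imminent group. Coverage of the Igha, Ighe and Ighg2c bin changed by -0.11 (SE 0.06, adjusted p = 0.204, edgeR) and by -0.24 in these comparisons.

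The Ighg2b and Ighg1 bin had 23.0 and 21.7 at 3 h, 22.1 and 21.4 at 10 h, 17.8 and 18.8 in the imminent group, and 17.2 and 18.3 in the pre-S group, again with no overlap between 33 h and earlier libraries. It fell by 0.25 on the log2 scale (SE 0.05, adjusted p = 0.00136, edgeR) in the imminent group and by 0.30 (SE 0.05, adjusted p = 0.000615) in the pre-S group. The Ighd and Ighm bin had 15.2 and 13.6 at 3 h, 13.7 and 13.6 at 10 h, 10.9 and 11.8 in the imminent group, and 10.1 and 11.05 in the pre-S group. It fell by 0.27 (SE 0.06, adjusted p = 0.00337) and by 0.37 (SE 0.06, adjusted p = 0.000664), beside its loss of coverage of 0.27 and 0.25. How far the coverage loss carried the loss of contacts was not tested.

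The Ighg3 bin differed least. It had 20.5 in both 3 h libraries, 19.9 and 19.3 at 10 h, 18.3 and 18.6 in the imminent group, and 17.3 and 17.0 in the pre-S group. The change in the imminent group was -0.08 (SE 0.04, adjusted p = 0.107, edgeR) and did not pass, while with TMM scaling it was -0.28 (adjusted p = 0.00487). In the pre-S group it fell by 0.19 (SE 0.04, adjusted p = 0.00256). Its coverage changed by 0.04 and -0.02 and passed in neither comparison. None of the 4 constant bins passed between the imminent and the pre-S group (adjusted p = 0.130 to 0.583), with differences of -0.07 (SE 0.04) to 0.11 (SE 0.04 in the Ighg3 bin, 0.06 in the Ighd and Ighm bin).

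**Figure D2:**
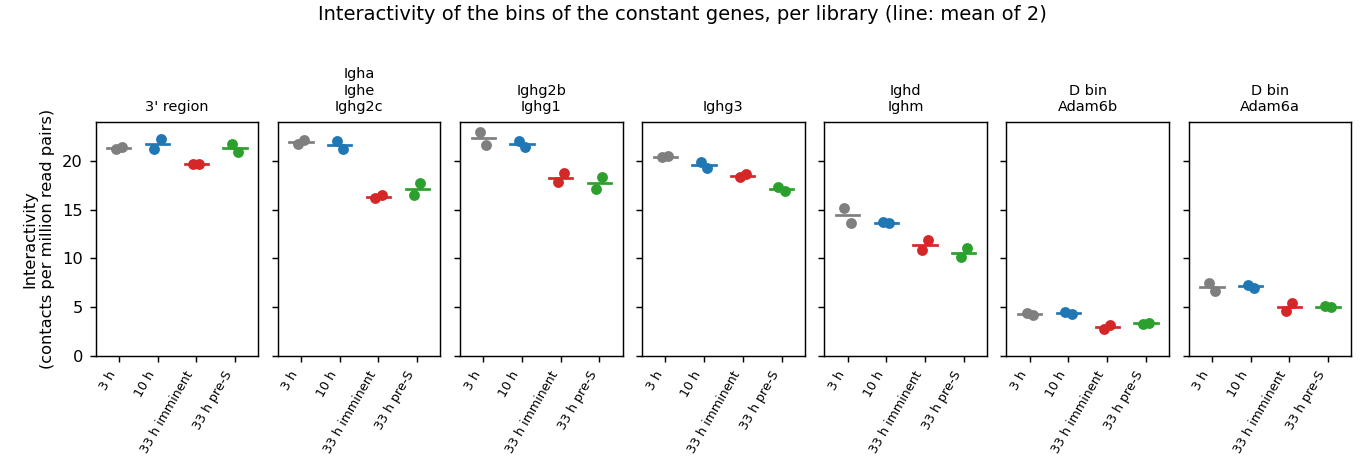
Interactivity in CPM (y axis, from 0) of the 3′ region bin, the 4 constant bins and the 2 D bins (panels) in each of the 8 libraries (points), with a line at the mean of the 2 libraries of a group. The Igha, Ighe and Ighg2c bin falls from between 21.3 and 22.2 at 3 h and 10 h to between 16.2 and 17.7 at 33 h, while the 3′ region bin lies between 19.7 and 22.3 throughout.

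The 3′ region bin, next to the Igha bin, moved less. It had 21.3 and 21.5 at 3 h, 21.2 and 22.3 at 10 h, 19.7 in both imminent libraries, and 21.8 and 21.0 in the pre-S group. It fell by 0.15 (SE 0.04, adjusted p = 0.0123, edgeR) in the imminent group, and its change of -0.03 (SE 0.04, adjusted p = 0.623) in the pre-S group did not pass. The difference between the 33 h groups, -0.12 (SE 0.04, adjusted p = 0.107), did not pass either.

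The largest loss of the locus was that of the Adam6b bin in the imminent and the Adam6a bin in the pre-S group. These D bins are named by their place between the constant and V bins, not by mapped D segments. Proximal V fell throughout. The bin of Adam6b had 4.35 and 4.13 at 3 h, 4.51 and 4.27 at 10 h, 2.79 and 3.16 in the imminent group, and 3.27 and 3.39 in the pre-S group. The bin of Adam6a had 7.52 and 6.65 at 3 h, 7.25 and 6.98 at 10 h, 4.60 and 5.45 in the imminent group, and 5.13 and 4.95 in the pre-S group. In both bins every 33 h library was below every earlier one, and both genes, which encode sperm proteins and lie between the D and the V segments, were in bins that passed in both comparisons (log2 fold changes -0.56 and -0.50 in the imminent group, -0.40 and -0.49 in the pre-S group, adjusted p = 0.000176 to 0.00131, edgeR). All 7 proximal V bins fell in both groups, by a median of 0.35 in the imminent and 0.36 in the pre-S group. The largest of these losses was that of the bin with Ighv5-2, Ighv2-2 and Ighv5-4, the V segments nearest to the D segments, which had 7.37 and 6.29 at 3 h, 6.999 and 7.43 at 10 h, 4.65 and 5.77 in the imminent group, and 5.20 and 5.37 in the pre-S group.

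In the other V parts some bins passed. Of the 11 intermediate V bins 4 fell in the imminent and 5 in the pre-S group, and of the 32 distal V bins 11 and 20 fell. The largest distal V change was that of the Ighv1-62-2 bin, -0.38 and -0.39. At the other end of the range, the bin of Ighv1-80 and Ighv1-81 changed by 0.05 (adjusted p = 0.505) in the imminent group. Over the whole locus 28 of 58 bins fell and 0 rose in the imminent group, beside 16.7% of all tested bins that fell and 15.2% that rose, and 38 of 58 fell and 0 rose in the pre-S group, beside 20.7% that fell and 20.7% that rose. With TMM factors in place of the loess offsets these counts were 15 down and 0 up, and 15 down and 1 up, and with contacts up to 1 Mb the pre-S count was 25. The median log2 fold change of the 58 bins was -0.19 and -0.21, against 0.01 and 0.00 for all bins. The 2 comparisons share the 10 h libraries. For the imminent group, leaving out 10 h replicate 1 or 2 gave 13 or 14 bins, imminent replicate 1 or 2 gave 14 or 47, and either 3 h replicate gave 43. For the pre-S group, leaving out either 10 h replicate gave 20 bins and pre-S replicate 1 or 2 gave 18 or 19. From 3 h to 10 h 0 locus bins were called by edgeR or DESeq2 (1 of 58 at an unadjusted p under 0.05 in edgeR), beside 0.00423% of all bins higher and 0.00211% lower.

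**Figure D3:**
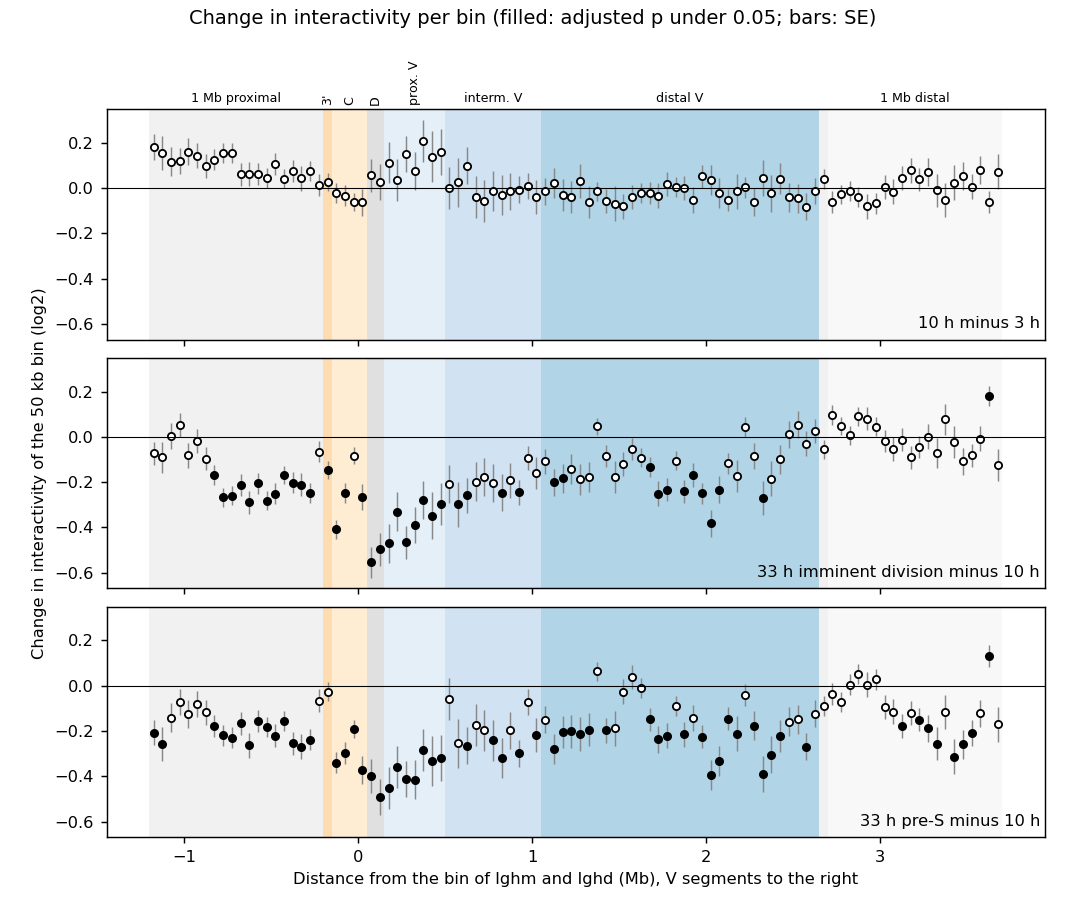
Log2 fold change of interactivity (y axis, bars are SE) of each 50 kb bin against the distance from the Ighd and Ighm bin in Mb (x axis), for 10 h over 3 h and for the imminent and the pre-S group over 10 h (panels), with filled points for bins with an adjusted p under 0.05. No locus bin passes in the first panel, and in the second the lowest value is that of the bin of Adam6b (-0.56).

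The kappa light chain locus, another large array of V segments, gave these counts in the same fit. Of its 64 bins 8 rose and 8 fell in the imminent group, and 14 rose and 7 fell in the pre-S group, with medians of 0.00 and 0.05. The proximal flank of the heavy chain locus lost interactivity in 12 and 14 of its 20 bins and gained it in none, while the distal flank rose in 1 and fell in 0 bins in the imminent group and rose in 1 and fell in 7 in the pre-S group. Between the 33 h groups 1 locus bin differed, that of Ighv1-82 and Ighv1-84, where 1.82% of all bins were higher and 1.14% lower in the imminent group. It had 8.65 and 9.56 CPM in the imminent and 7.85 and 7.56 in the pre-S group (0.24, SE 0.06, adjusted p = 0.0348, edgeR). Leaving out imminent replicate 1 gave 8 bins, either 3 h replicate gave 4, and any other single library gave 0.

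Single pairs of bins were tested next, as differential interactions (DIs), among 1733 pairs within the locus and its proximal flank, of which 1157 lay within the locus. From 3 h to 10 h 0 pairs passed in edgeR or in DESeq2, with 89 at an unadjusted p under 0.05 in edgeR and a smallest adjusted p of 0.538, where 0.000617% of all 1458599 pairs passed (0.000548% stronger and 6.86e-05% weaker). The pair with the smallest p in the locus joined the Ighd and Ighm bin to the Ighv1-47 bin (log2 fold change -1.44, SE 0.43).

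From 10 h to the imminent group 45 pairs passed, 3 stronger and 42 weaker, which is 2.60% of those tested against 2.01% of all pairs (0.691% stronger and 1.32% weaker). The count rested on the processing: it was 83 with TMM factors, 10 with a filter of 2 times the background, 6 after thinning to the shallowest library and 71 with bins of 100 kb. The filter, thinning and bin size also change which pairs are tested, and shares over all pairs in these runs are not given here. Of the 45 pairs, 20 lay within the locus (3 stronger, 17 weaker), 1.73% of the pairs tested there and below the share over all pairs. A further 6 joined the proximal flank to the locus, all weaker, and 19 lay within the proximal flank, all weaker, 11.3% of those tested. The direction of the split depended on coverage: with the coverage of both bins in the offsets, 20 pairs were stronger and 15 weaker. The bin of Igha, Ighe and Ighg2c was part of 9 of the 45 pairs, more than any other bin, and all 9 were weaker. They joined it to the 3′ region, the Ighg2b and Ighg1 bin, the Ighd and Ighm bin, both D bins, 1 distal V bin (Ighv1-50 and Ighv1-52, -1.36) and 3 bins of the proximal flank, of which Pld4 encodes an endolysosomal nuclease (-1.29), Jag2 a Notch ligand (-1.10) and Brf1 a subunit of the RNA polymerase III factor TFIIIB (-0.88). DESeq2 called 0 of the 1733 pairs here, and 41 of all pairs. In edgeR, leaving out 10 h replicate 1 or 2 gave 9 or 4 pairs, and imminent replicate 1 or 2 gave 8 or 16.

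The smallest p belonged to the pair of the Igha, Ighe and Ighg2c bin with the Ighg2b and Ighg1 bin. Its normalised counts were 461 and 466 at 3 h, 534 and 493 at 10 h, 351 and 402 in the imminent group, and 356 and 375 in the pre-S group. The 33 h libraries lay below all earlier ones. The log2 fold change from 10 h was -0.44 (SE 0.08, adjusted p = 0.000157, edgeR) in the imminent and -0.49 (SE 0.09, adjusted p = 0.00023) in the pre-S group. With coverage in the offsets these were -0.16 (adjusted p = 0.361) and -0.22 (adjusted p = 0.407), and DESeq2 gave adjusted p = 0.327 and 0.230. The pre-S call was also lost without the first 10 h library (adjusted p = 0.0529) and without the first pre-S library (adjusted p = 0.111).

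The pair of the 3′ region with the Igha, Ighe and Ighg2c bin had normalised counts of 334 and 330 at 3 h, 314 and 340 at 10 h, 235 and 264 in the imminent group, and 251 and 259 in the pre-S group. It fell by 0.39 (SE 0.09, adjusted p = 0.00684, edgeR) in the imminent group, and the call was lost with coverage in the offsets (-0.19, adjusted p = 0.352), without the second 10 h library (adjusted p = 0.247) and without the first imminent library (adjusted p = 0.135). In the flank, the pair of the Ahnak2, Clba1 and Cdca4 bin with the Tedc1 and Tmem121 bin fell by 0.81 (SE 0.18, adjusted p = 0.00351), with the call lost without the second 10 h library (adjusted p = 0.116) or the first imminent library (adjusted p = 0.0948).

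The 3 stronger pairs were of low count and spanned 1550.0, 2500.2 and 599.5 kb, in the order below. The Ighd and Ighm bin with the Ighv1-47 bin was joined by 13 and 22 pairs of reads in the 3 h libraries, 4 and 11 in those of 10 h, 25 and 33 in the imminent group, and 22 and 7 in the pre-S group. After normalization these were 21.4, 19.4, 4.48, 9.48, 20.2, 21.7, 23.6 and 8.78, so that the imminent libraries were at the level of the 3 h libraries and the 10 h libraries were low. The log2 fold change from 10 h was 1.51 (SE 0.39, adjusted p = 0.0167, edgeR). The Ighd and Ighm bin with the Ighv1-80 and Ighv1-81 bin had 5, 10, 3 and 7 read pairs in the 3 h and 10 h libraries, 21 and 25 in the imminent group, and 7 and 6 in the pre-S group, where the imminent libraries stood above all others (1.74, SE 0.46, adjusted p = 0.0177). The Ighv1-62-2 bin with the bin of Ighv1-85 and Zfp386 had 6, 8, 3 and 2, then 17 and 22, then 6 and 7 (2.04, SE 0.58, adjusted p = 0.0332). Normalised, these were 10.8, 7.43, 3.79, 1.93, 10.7, 12.4, 6.61 and 8.77, so that here too the imminent libraries were near the 3 h level and the 10 h libraries were low. Each of these 3 calls was lost when either 10 h library or either imminent library was left out, with adjusted p of 0.0543 to 0.410.

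From 10 h to the pre-S group 12 pairs passed, all weaker, which is 0.692% of those tested against 0.594% of all pairs (0.255% weaker and 0.339% stronger), 2 of them within the locus, 0.173% of the pairs tested there and below the share over all pairs. With coverage in the offsets 6 pairs passed, all stronger, and the count was 38 with TMM factors, 4 with the filter of 2 times the background and 25 with bins of 100 kb. Beside the Igha to Ighg2b pair above, the second locus pair joined the Ighv6-7, Ighv8-2, Ighv10-1 and Ighv1-4 bin to the Ighv1-55 and Ighv1-56 bin (-1.42, adjusted p = 0.0475), and 3 pairs joined flank bins to the Igha, Ighe and Ighg2c bin or the Ighg2b and Ighg1 bin. In the flank the Tex22 and Mta1 bin took part in the smallest p-values, with the Brf1 and Pacs2 bin (-0.45, SE 0.09, adjusted p = 0.00296) and with the bin of Akt1, a kinase of growth factor signalling, and Zbtb42 (-1.11, SE 0.24, adjusted p = 0.0038). Of the 58 tested pairs of a flank bin with a constant bin, 55 had a log2 fold change below 0, with a median of -0.63, against -0.01 over all pairs, and 3 passed. Leaving out 10 h replicate 1 or 2 gave 0 or 2 pairs, pre-S replicate 1 or 2 gave 0 or 3, 3 h replicate 1 or 2 gave 21 or 20, and imminent replicate 1 or 2 gave 18 or 19. The imminent and pre-S lists, which share the 10 h libraries, had 3 pairs in common, 6.67% of the 45 and 25.0% of the 12. The overlap of the 2 lists over all pairs is not given here, so these shares cannot be called high or low. DESeq2 called 0 of these pairs and 124 of all pairs.

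Between the imminent and the pre-S group 6 pairs passed, 0.346% of those tested against 0.36% of all pairs. Of these, 5 were stronger and 1 weaker in the imminent group (0.146% and 0.214% of all pairs). Offsets that held coverage turned this to 2 stronger and 12 weaker, and the filter of 2 times the background, normalization by distance class or thinning left 1 pair each. Leaving out imminent replicate 2 or either pre-S replicate gave 0 pairs, and DESeq2 called 0 of these pairs and 178 of all pairs. The Ighg2b and Ighg1 bin with the bin of Ighv1-53, Ighv8-6 and Ighv1-54 had 37 and 36 read pairs in the imminent and 7 and 10 in the pre-S group, with 20, 29, 13 and 23 at 3 h and 10 h. The Ighg3 bin with the Ighv8-4 bin had 26 and 44 against 11 and 5, with 13, 28, 17 and 24 earlier. In both pairs the pre-S libraries were lower than all the others.

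**Figure D4:**
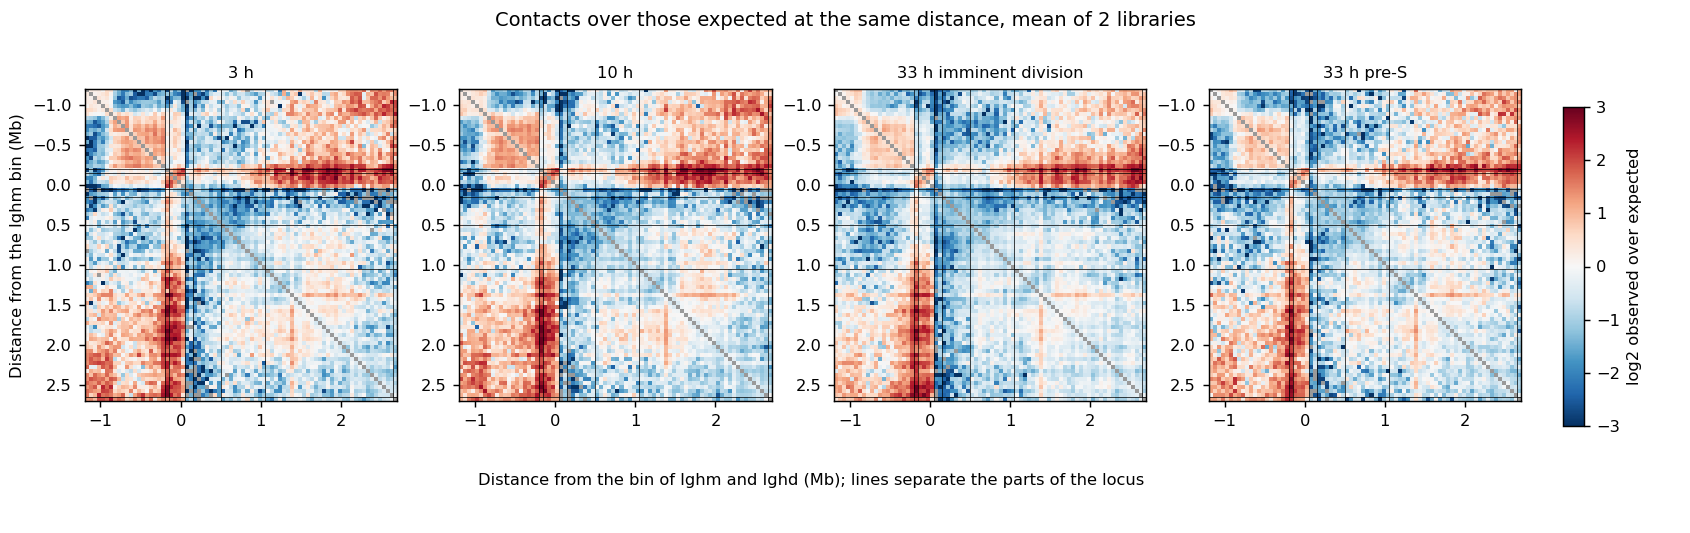
Contact maps of the proximal flank and the locus in the 4 groups, as log2 of the mean observed over expected contact of the 2 libraries (colour), with both axes in Mb from the Ighd and Ighm bin and lines between the parts. Grey cells are the diagonal or pairs without a value. The red band where the 3′ region and the constant bins meet distal V is contact above the expected level (2.56 to 3.50 over the libraries for the constant bins).

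Whole parts of the locus were compared by their contact relative to the mean of all autosomal pairs at the same distance. The constant bins and the 3′ region were in contact with distal V above that mean. With proximal V, which is closer, the 3′ region was above it and the constant bins below it. Constant with distal V gave 3.50 and 3.44 at 3 h, 3.40 and 3.37 at 10 h, 2.98 and 3.11 in the imminent group, and 2.61 and 2.56 in the pre-S group, so that the 4 groups did not overlap. Constant with proximal V gave 0.704 to 0.968 over the 8 libraries and constant with D 0.305 to 0.559. The 3′ region gave 4.61 to 5.73 with distal V and 1.54 to 2.47 with proximal V, and 2.34 to 3.41 and 1.69 to 2.63 when the coverage of both bins entered the expected value.

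Of 18 such values tested, 7 differed between the 4 groups in an exact permutation test with 105 arrangements (Benjamini-Hochberg adjusted over the 18). These were constant with distal V, constant with intermediate V, the proximal flank with constant and with distal V (each exact permutation p = 0.00952, the smallest that this test can give, adjusted p = 0.0429), and the 3′ region with constant, with proximal V and with the proximal flank (each p = 0.019, adjusted p = 0.049). On this scale, without coverage, all 7 were lower in both 33 h groups than at 10 h, which with coverage held for the imminent group but for only 4 of the 7 in the pre-S group. Constant with intermediate V fell from 1.29 and 1.23 at 3 h and 1.15 and 1.13 at 10 h to 0.942 and 0.955 in the imminent and 0.987 and 1.01 in the pre-S group. The proximal flank with constant went from 1.07 and 1.01 and then 0.961 and 0.937 to 0.714 and 0.760, and to 0.585 and 0.645 in the pre-S group. The 3′ region with constant was 2.50, 2.48, 2.48 and 2.64 before 33 h and 1.90, 2.10, 1.86 and 1.88 at 33 h.

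Contact of the 3′ region with distal V did not pass this test (5.51 and 5.15, 5.35 and 5.73, 4.61 and 4.97, 5.31 and 4.84, adjusted p = 0.214), nor did contact among distal V bins, 0.792 to 0.843 (adjusted p = 0.600). All 7 adjusted p-values rose above 0.05 when the coverage of both bins entered the expected value or when the expected value came from chromosome 12 alone (lowest adjusted p = 0.0571 in each). With coverage, the 3′ region with constant was below the expected value, at 0.653, 0.779, 0.833, 0.878, 0.801, 0.699, 0.856 and 0.779 in the order of the groups (adjusted p = 0.279), and the 33 h libraries overlapped the earlier ones. The proximal flank with constant was 0.276, 0.304, 0.290, 0.287, 0.265, 0.238, 0.241 and 0.2504 (adjusted p = 0.145), lower and with a smaller fall. Constant with intermediate V was 0.778, 0.839, 0.829, 0.822, 0.754, 0.678, 0.802 and 0.857 (adjusted p = 0.159), where the pre-S libraries overlapped the earlier ones and their mean (0.829) was no longer below that of 10 h (0.826). The proximal flank with the 3′ region had means of 0.260, 0.278, 0.263 and 0.317 in the order of the groups (adjusted p = 0.343). With distal V the proximal flank had means of 0.769, 0.899, 0.773 and 0.923 (adjusted p = 0.114). In both the pre-S direction from 10 h turned, and the imminent mean was near that of 3 h. The 3′ region with proximal V had means of 1.96, 2.54, 1.75 and 2.39 (adjusted p = 0.0571). Constant with distal V was 1.43, 1.57, 1.67, 1.64, 1.67, 1.51, 1.47 and 1.49 (adjusted p = 0.279). Leaving out 3 h replicate 2, 10 h replicate 2, pre-S replicate 1 or either imminent replicate also gave 0 such values, and leaving out 10 h replicate 1 gave 4.

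Seen from the 3′ region, the 3 V bins of highest mean contact each held a CTCF core, as 23 of the 32 distal V bins did. The Ighv1-47 bin was highest, with a mean of 8.92 times the expected contact over the 8 libraries (31, 43, 41, 56, 56, 56, 48 and 27 read pairs), followed by the Ighv1-55 and Ighv1-56 bin (8.24) and the Ighv1-58 and Ighv1-59 bin (8.11). Their order differed between groups. At 3 h the Ighv1-58 and Ighv1-59 bin had 9.65, against 9.20 for the Ighv1-47 bin. In the imminent group the Ighv1-55 and Ighv1-56 bin had 8.58, against 7.66 for the Ighv1-47 bin. The Ighv1-58 and Ighv1-59 bin held 2 cores, of which that near Ighv1-59 is printed above. The 23 distal V bins with a core had a median of 5.19 (3.68 to 8.92) and the 9 without one 3.76 (2.84 to 7.02). Most distal V bins without a core lie at the end next to intermediate V, so core and position cannot be told apart. These values are also not corrected for coverage, which lowered the contact of the 3′ region with distal V as a whole. In intermediate V the highest bin held no core (3.75, against at most 2.65 in bins with one). From the Ighd and Ighm bin the same medians were 2.19 and 2.05, and its highest bin was that of Ighv1-53, Ighv8-6 and Ighv1-54 (3.58). By the mean of the 8 libraries, the Igha, Ighe and Ighg2c bin and the Ighg2b and Ighg1 bin were highest with the Ighv1-58 and Ighv1-59 bin (5.45 and 5.83), and the Ighg3 bin with the Ighv1-55 and Ighv1-56 bin (4.81). These ranks did not hold in each group. The 5.83 came from 9.24 at 3 h and then 5.49, 4.15 and 4.43, on 14 to 44 read pairs per library. With the Ighv1-55 and Ighv1-56 bin the Ighg2b and Ighg1 bin had 4.58, 6.70, 5.04 and 4.91. For the Ighg3 bin, the Ighv1-58 and Ighv1-59 bin was above the named bin at 3 h and 10 h. The bin of Ighv1-23, Ighv1-24 and Ighv1-26, which held no core, was also among the 3 highest for the Ighd and Ighm bin (3.08) and for the Igha, Ighe and Ighg2c bin (5.25). These medians are given as a description, since neighbouring bins depend on each other and the peaks were read from the same libraries.

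**Figure D5:**
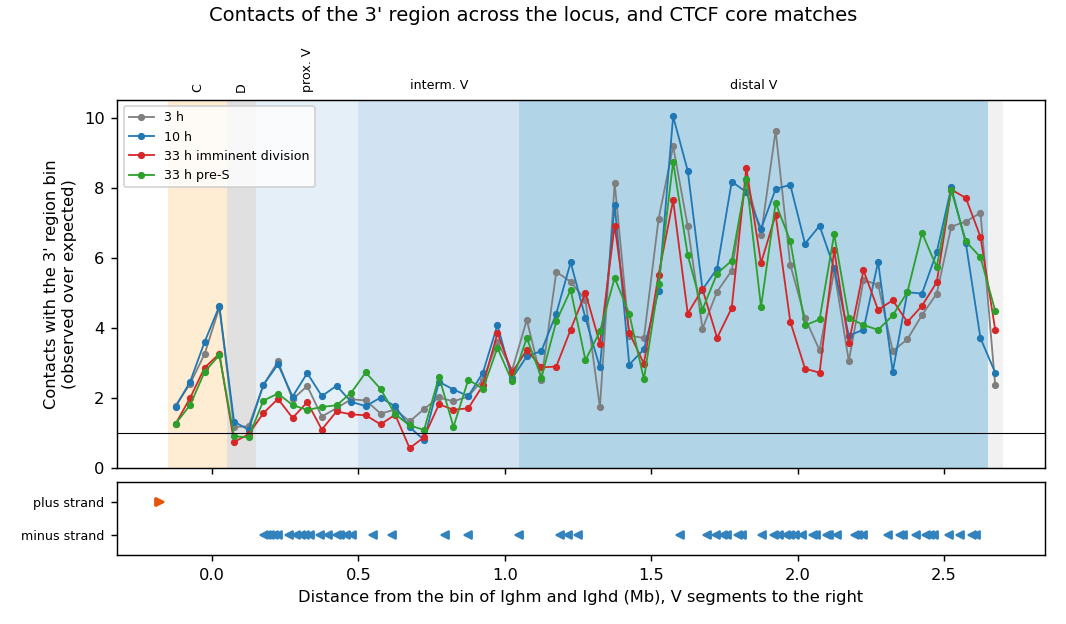
Contact of the 3′ region bin with each other bin of the locus, as observed over expected (y axis) against the distance from the Ighd and Ighm bin in Mb (x axis), as the mean of the 2 libraries of each group, with arrowheads below for the strand and place of the CTCF core matches. Contact is highest in distal V, where the Ighv1-47 bin has a mean of 8.92 over the 8 libraries, and the core matches on the 2 sides of the constant genes lie on opposite strands.

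Over all pairs within it, the heavy chain locus had 0.766 to 0.859 of the contact expected for the distance, less than the kappa locus (chr6:67550321-70750102), which had 1.30 to 1.53. Their ratio was 0.563 and 0.541 at 3 h, 0.562 and 0.568 at 10 h, 0.591 and 0.576 in the imminent group, and 0.581 and 0.575 in the pre-S group, and did not pass the exact permutation test (p = 0.0667). With coverage in the expected value the ratio was 0.639, 0.583, 0.651 and 0.665 before 33 h and 0.853, 0.858, 0.889 and 0.904 at 33 h (exact permutation p = 0.00952), where the kappa locus went from 1.00 to 1.11 down to 0.791 to 0.866. Between chromosomes, the locus contacted the kappa locus 2.10 to 2.75 times, the lambda locus 2.39 to 4.43 times and Myc, the oncogene joined to Igh in B cell translocations, 1.82 to 2.95 times as often as coverage predicted, with no difference between the groups that passed the exact permutation test (adjusted p = 0.243, 0.495 and 0.143).

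The compartment component, the first principal component of the contact correlations, was positive in all groups in all 29 bins of 100 kb from the constant region to the V end (positive is the side with more gene starts). The 3′ region shares its 100 kb bin with the proximal flank and is not among the 29, here or for the boundary ratio below. Only the D region in the pre-S group passed, from 0.965 and 0.946 at 10 h to 0.844 and 0.849 (-0.11, adjusted p = 0.0161, limma), where 11.3% of all bins were called lower, and the call was lost (0 regions) without either 10 h or either pre-S library. At 3 h the D region had 0.853 and 0.915, below both 10 h libraries. In the other 3 comparisons limma called 0 of 29, with 2 at an unadjusted p under 0.05 in each, where over all bins 2.5% were called higher and 2.04% lower from 3 h to 10 h, 12.4% and 14.5% in the imminent group over 10 h, and 7.99% and 7.64% between the 33 h groups.

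The boundary ratio is the log2 of a region's contacts over 1 Mb toward lower coordinates (the 3′ side) over those toward higher coordinates (the V side), so that a step from high to low toward higher coordinates marks a domain boundary. The region of Ighg3, Ighd and Ighm had the ratio 1.63 and 1.55 at 3 h, 1.61 and 1.56 at 10 h, 1.24 and 1.39 in the imminent group, and 1.31 and 1.33 in the pre-S group. Its contacts thus went mostly to the 3′ side in every library, and less so at 33 h (-0.26, adjusted p = 0.0351, edgeR, in the imminent group, and -0.27, adjusted p = 0.141, in the pre-S group). The ratio is not corrected for coverage, which was 1.53 to 1.94 in the proximal flank. In the D bins it was 0.466 to 0.570 and in proximal V 0.568 to 0.650. How far coverage set the ratio was not tested. The D region went from 0.235 and 0.366 at 3 h through 0.0597 and 0.088 at 10 h and -0.119 and -0.110 in the imminent group to -0.515 and -0.365 in the pre-S group (-0.52 from 10 h, adjusted p = 0.000916). Its change from 10 h to the imminent group (-0.19, adjusted p = 0.352) and the difference between the 33 h groups (0.33, adjusted p = 0.0753) did not pass. The first proximal V region, from Ighv5-2 to Ighv5-6, moved the same way, from 1.23 and 1.07 at 10 h to 0.832 and 0.792 (-0.33, adjusted p = 0.0139) and to 0.625 and 0.573 (-0.54, adjusted p = 0.000226).

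In distal V the region of Ighv15-2 to Ighv1-12 rose by 0.39 in both groups (adjusted p = 0.000173 and 0.00374, edgeR), and that of Ighv1-61 to Ighv1-62-2 fell by 0.40 in the imminent group (adjusted p = 0.000141). In all, 4 of 29 locus regions rose and 7 fell in the imminent group, where 8.77% of all regions rose and 9.07% fell, and 2 rose and 4 fell in the pre-S group, beside 2.45% and 2.44%. Between the 33 h groups 1 region, from Ighv1-62-3 on, was lower in the imminent group (-0.30), where 2.69% of all regions were higher and 2.81% lower. For the imminent group, leaving out 10 h replicate 1 or 2 gave 7 or 5 regions and imminent replicate 1 gave 6, and for the pre-S group leaving out pre-S replicate 1 gave 3. With flanks of 500 kb 3 and 2 regions passed. From 3 h to 10 h 0 of 29 passed in edgeR (3 at an unadjusted p under 0.05), where 0.157% of all regions rose and 0.178% fell.

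The bins of genes that act on the locus, in recombination, mutation, end joining and loop extrusion, were read from the same interactivity fit. Of 32 listed, 31 were tested (Stag2 lies on the X chromosome). Counted by gene, with Rag1 and Rag2 each counted although they share a bin, 3 rose and 11 fell in the imminent group, and 5 rose and 6 fell in the pre-S group, beside 15.2% and 16.7%, and 20.7% and 20.7%, of all bins. The bin of Ctcf fell by 0.25 (adjusted p = 0.000568, edgeR) and 0.17 (adjusted p = 0.00418), that of Nhej1, an end joining factor, by 0.34 and 0.35, and that of Paxip1, which encodes an adaptor of DNA repair and histone methylation that switching needs, by 0.21 and 0.30. The bin of Xrcc4, a partner of DNA ligase IV, rose by 0.18 and 0.21, and that of Pds5a, a cohesin regulator, by 0.13 and 0.13. The bin of Rag1 and Rag2, which cut at V, D and J segments, fell by 0.12 and 0.16.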

How the data were processed

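The authors deposited, for each of the 8 libraries, a matrix of raw read pair counts between 50 kb bins. Per the methods and the labels, reads were aligned to mm10 (GRCm38) with bowtie2 through diffHic, duplicates were marked, and dangling ends and long fragments were removed. No file pairs bins with coordinates, so bins were rebuilt from MboI fragment midpoints, and the 53357 rebuilt bins equal the number in the matrices. The members and gene lists were chosen with earlier results of these data known.

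Bin pairs needed a summed count of 10 and an abundance over 4 times the interchromosomal background. Bin pairs, interactivity, coverage and boundary ratios (fold over 1.1) were tested with edgeR 4.0.16 (quasi-likelihood) on all 8 libraries, with loess offsets for pairs (split at 1.5 Mb) and interactivity, TMM factors for coverage, and Benjamini-Hochberg adjustment at 5% over all features. The compartment component used limma 3.58.1, and part contacts an exact permutation test over 105 splits. DESeq2 1.42.0 was an alternative. Scripts were tested on simulated data. The named pairs were those of the smallest p in each direction and comparison, up to 3, beside the 8 constant genes and the listed pathway genes. The value of 1 listed gene is not reported here. The CTCF core was searched by its letters, with no measure of binding. Depth limits long-range pairs, where the named pairs had few read pairs per library.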

Additional observations from a re-analysis of the deposited data

Results flagged for a closer look

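The following 5 results differed between the imminent and the pre-S group by a test of the difference itself (edgeR, Benjamini-Hochberg adjusted over all features). They are the named pairs and the interactivity bin that passed. Further pairs, coverage bins and a boundary region also passed in this comparison and are not listed here. The pairs called were 0.346% of those tested, against 0.36% of all pairs. The log2 difference, imminent over pre-S, was 1.44 for the Ighg2b and Ighg1 bin with the Ighv1-53, Ighv8-6 and Ighv1-54 bin, 0.75 for the Tedc1 and Tmem121 bin with the Ighg3 bin, 1.46 for the Ighg3 bin with the Ighv8-4 bin, and -1.89 for the Ighv7-2, Ighv14-1 and Ighv4-1 bin with the Ighv1-55 and Ighv1-56 bin. Each of these 4 pair calls was lost without the second imminent library or either pre-S library. The interactivity of the Ighv1-82 and Ighv1-84 bin differed by 0.24, and this call was lost with TMM factors, with DESeq2, with the replicate block, and without either 10 h library, the second imminent library or either pre-S library. The FUCCI transgenes and the gate also differ between these groups.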

How the results depend on the processing

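The calls of lower interactivity at 33 h for the constant bins were kept in every alternative run made for interactivity. None of those runs put coverage in the offsets. The runs for single pairs did include coverage, and calls on pairs of these bins were not kept in all of them. No named bin or pair that had passed changed sign, but with coverage in the offsets the split of pairs called stronger and weaker went from 3 and 42 to 20 and 15, from 0 and 12 to 6 and 0, and from 5 and 1 to 2 and 12. In the order 10 h over 3 h, imminent over 10 h, pre-S over 10 h and imminent over pre-S, the calls were 0, 45, 12 and 6 pairs, 0, 28, 38 and 1 bins for interactivity, 0, 1, 9 and 4 for coverage, 0, 11, 6 and 1 boundary regions, and 0, 0, 1 and 0 compartment regions. For the last 3 comparisons, pairs numbered 10, 4 and 1 with a filter of 2 times the background, 0, 0 and 0 with DESeq2, and 83, 38 and 4 with TMM factors. With coverage in the offsets the pre-S count was 6 and the last 14. The last was 1 by distance class and 1 after thinning, where the imminent count was 6. At 100 kb they were 71 and 25. The filter, thinning and bin size change which pairs are tested, and shares over all pairs in these runs are not given here. Interactivity gave 15, 16 and 0 with TMM factors, 25 (pre-S) for contacts up to 1 Mb, and 0 (last) with DESeq2. Coverage gave 2 (imminent) with library totals and 0 (last) with DESeq2. Boundaries numbered 1, 14, 13 and 6 without the fold threshold and 3, 2 and 0 with 500 kb flanks. Compartments gave 1 (imminent) and 1 (last) after quantile normalization and 2 (pre-S) with a 250 kb component. Parts past the threshold fell from 7 to 0 with chromosome 12 expectations and to 0 with coverage, and the kappa ratio gave p = 0.00952 in the exact permutation test with coverage.

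Leaving out 1 library at a time gave 0 to 0, 4 to 53, 0 to 21 and 0 to 8 pairs, 0 to 0, 13 to 47, 18 to 47 and 0 to 8 bins for interactivity, 0 to 0, 1 to 6, 3 to 15 and 0 to 14 for coverage, 0 to 0, 5 to 11, 3 to 6 and 0 to 1 boundaries, 0 to 1 compartment regions in each comparison, and 0 to 7 parts. The exact permutation p ran from 0.019 to 0.190 for the kappa ratio.

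The deviations of same-numbered libraries correlated with r from -0.780 to 0.237, which gave no ground to pair libraries by number. Those of the 3 h and imminent libraries were opposed (r -0.780 for interactivity and -0.628 for coverage). They thus shared an axis of spread whose source was not tested, and these values cannot exclude a pairing. With the replicate block the last comparison gave 2 pairs, 0 bins for interactivity, 1 for coverage and 1 compartment region, the imminent and pre-S comparisons 38 and 10 pairs and 24 and 29 bins, and the boundary counts were 11, 6 and 1. The causes of these shifts were not tested.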

Other observations

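The bin of Ighv1-23, Ighv1-24 and Ighv1-26 had an interchromosomal coverage of 1.85 and 1.86 at 3 h, 1.68 and 1.72 at 10 h, 1.65 and 1.75 in the imminent group, and 1.69 and 1.64 in the pre-S group, above the distal V mean of 1.12 to 1.27. It held 127 MboI sites and no CTCF core match.

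Over the 8 libraries, the protein-coding genes whose bin followed the interactivity of the Ighd and Ighm bin most closely, of 20249 compared outside the region, were Ctsll3 (Pearson r 0.997), Gfpt2 (0.996), Klk1b27 (0.995), H2-Q10 (0.995) and 4930486L24Rik (0.994). The libraries share their groups, so these values are a description.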
